A study of Homo sapiens with 80 samples.

Results

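The 44 collagen chain genes described here are all symbols of the pattern COL, number, A, number found in both deposited tables of TPM (transcript abundance scaled for transcript length and library size), out of 43361 genes in both tables. They comprise 11 fibrillar chains, 10 fibril-associated chains (FACITs, collagens that decorate fibrils), 6 chains of the basement membrane network, 5 beaded filament chains, 4 transmembrane chains, 3 short chains, 2 multiplexins, 1 anchoring fibril chain and 2 others. The study differentiated human pluripotent stem cells to cardiomyocytes and followed differentiations that were later classed as high or low purity by how many cells stained for cardiac troponin T at the end. WNT signalling was first activated with CHIR99021 and then blocked with IWP2, and the labels name no engineered allele for any line. In the multi-omic experiment the induced pluripotent line WTC11 was sampled at 8 times between day 0 and day 16. Its 25 high purity libraries were wells of a single differentiation from passage 52 cells, and its 31 low purity libraries were wells of another from passage 69 cells. Class therefore cannot be told apart from passage or from the run itself, and p-values cover only the spread between wells. In the RNA-only experiment 1 high and 1 low purity differentiation of each of 3 lines was sampled at 4 stages. Stage 1 is day 0, stage 2 falls on day 2 or 3, stage 3 on day 4 or 5, and stage 4 on day 6 or 7. These lines were WTC11 (passage 81 high, 69 low), IMR90-4, another induced line (passage 55 high, 75 low), and H9, an embryonic stem cell line (passage 58 high, 55 low).

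Collagens are trimers of chains wound into a triple helix, and each chain has its own gene. Fibrillar chains such as COL1A1, COL1A2 and COL3A1 form the tensile fibres laid down by fibroblasts and other stromal cells, while chains of type IV form the sheet of the basement membrane that surrounds cardiomyocytes and underlies epithelia. Chains must be hydroxylated, folded by chaperones such as SERPINH1, trimmed and crosslinked before they work in the matrix. RNA levels of bulk cultures are given here, in which fewer cells of a type and less RNA per cell cannot be told apart.

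Libraries held between 6579715 and 18143597 reads in the multi-omic experiment and between 17990882 and 40357968 in the RNA-only experiment, which used another kit (total RNA in place of poly(A) RNA), so levels are compared within an experiment. The multi-omic count table was not tested. It served only to check names and to help recover the reads behind the TPM. Of the TPM columns, 50 had their reads in a count column of a different name and 0 in one of the same name. The other 6 (4 of them high purity, day 0) had theirs in none. Of 55 TPM columns whose group had another well, 54 were most like a well of their own group, and the exception was low purity well 1 of day 13, nearest to a day 16 well. Cardiomyocyte markers summed to between 11996 and 14008 TPM in high purity wells on day 16 and to between 4454 and 6663 TPM in low purity wells, and 7 of 10 were higher in high purity. A gene was called different when the adjusted p was under 0.05 and the log2 fold change was at least 1 in either direction (limma on log2(TPM + 1), or edgeR on counts). Differences are given as high minus low purity, and a log2(TPM + 1) difference understates the change of genes with low levels. Levels are printed as deposited, whereas fold changes follow TMM scaling between libraries, with factors of 0.758 to 0.871 in high and 0.928 to 0.942 in low purity wells of day 16. On that day, therefore, high purity wells read lower in printed TPM than in the fold changes, and a chain whose printed wells do not overlap can have a fold change near 0. In the multi-omic experiment 40 of the 44 chains passed the filter on low values, and COL11A2, COL20A1, COL22A1 and COL28A1 did not. COL11A2 is also listed under 6 further copies, so its level is uncertain.

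Summed over all 44 chains, collagen RNA differed little between the classes on day 0 and widely on day 16. The sum was 433 ± 17.5 TPM (SD, n = 4) in high purity wells and 373 ± 9.78 TPM (n = 4) in low purity wells on day 0, 1550 ± 107 and 2442 ± 49.1 TPM on day 4 (n = 4 each), and 1888 ± 155 and 12592 ± 2124 TPM on day 16 (n = 3 each). The fibrillar chains held most of that: on day 16 they summed to 954 ± 87.9 TPM in high purity and to 10816 ± 1995 TPM in low purity. COL3A1 alone supplied between 45.3% and 48.5% of the collagen sum of low purity wells on day 16 and between 6.54% and 6.57% in high purity wells. In high purity wells COL2A1 supplied 16.6% on average and COL4A2 14.8%, against 1.22% and 2.60% in low purity wells. The basement membrane chains then summed to 471 ± 31.4 TPM (high) and 681 ± 28.9 TPM (low).

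**Figure D1:**
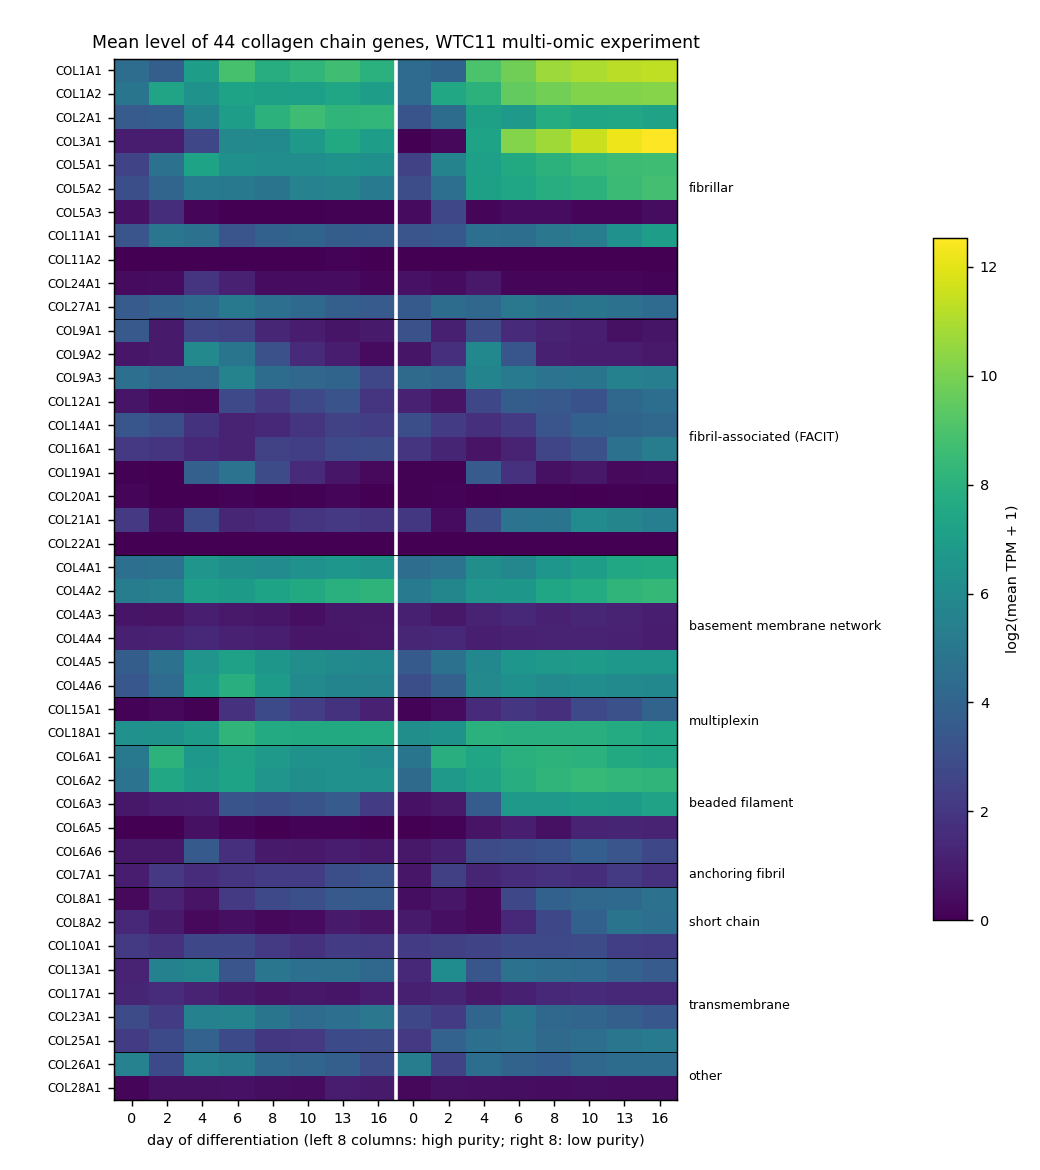
Mean level of each of the 44 chains, as log2(mean TPM + 1), by day in the multi-omic experiment, with the 8 days of high purity on the left and those of low purity on the right and chains grouped by class. COL3A1, COL1A1 and COL1A2 reach the highest levels, in low purity wells from day 8 to day 16, while 4 rows, COL11A2, COL20A1, COL22A1 and COL28A1, stay dark throughout.

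On day 0, 0 of the 40 chains tested were called in limma, 13 had an unadjusted p under 0.05 (32.5%, beside 25.7% of all genes), and 1.07% of all 25664 genes were called (0.242% higher and 0.83% lower in high purity). COL3A1, higher in high purity, was the 1 chain called in limma with a pseudocount of 0.1 (log2 fold change 2.90) or without high purity well 1 (1.16), and in edgeR on recovered reads, an alternative chosen after seeing the data. On day 2, COL11A1 was higher and COL25A1 lower, beside 5.33% of all genes called (2.24% higher, 3.09% lower). COL11A1, a chain of the minor fibrillar collagen XI, stood at 28.6, 29.6, 33.7 and 25.8 TPM in high purity wells and at 7.62, 10.3, 12.5 and 9.12 TPM in low purity wells, a log2 fold change of 1.56 ± 0.13 (SE; limma, adjusted p = 1.38e-13). COL25A1, a transmembrane collagen best known from neurons, had 7.21, 5.06, 4.94 and 7.34 TPM in high and 13.8, 14.3, 13.8 and 16.0 TPM in low purity wells (log2 fold change −1.07 ± 0.11). For neither chain did the classes overlap. Over all genes the wells did not overlap for 34.0% on day 2, 31.7% on day 4 and 30.7% on day 6. On days 8, 13 and 16 these shares were 42.2%, 47.5% and 47.6%. Of the 40 chains tested, 19, 27, 32, 27, 35 and 32 did not overlap on days 2, 4, 6, 8, 13 and 16. COL25A1 fell under the fold threshold without high purity well 2 or 3 (−0.99 and −1.00), which left 1 chain called. From day 4 more chains were called, mostly lower in high purity. Day 4 had 14, 4 higher and 10 lower, beside 7.84% of all genes (3.62% higher, 4.22% lower). For day 6 these numbers were 14, 4 and 10, beside 8.81% (3.62% and 5.19%). For day 8 these numbers were 18, 4 and 14, beside 12.2% (4.66% and 7.51%). For day 13 these numbers were 19, 1 and 18, beside 10.8% (4.55% and 6.23%). For day 16 these numbers were 23, 3 and 20, beside 13.4% (5.76% and 7.66%). Day 10 had 1 high purity well and was not tested. All 19 chains called on day 13 were called in the same direction on day 16. The same share over all genes was not counted. Without low purity well 1 of day 13, 16 chains were called on that day, and COL6A5, COL7A1 and COL15A1 were the 3 lost.

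**Figure D2:**
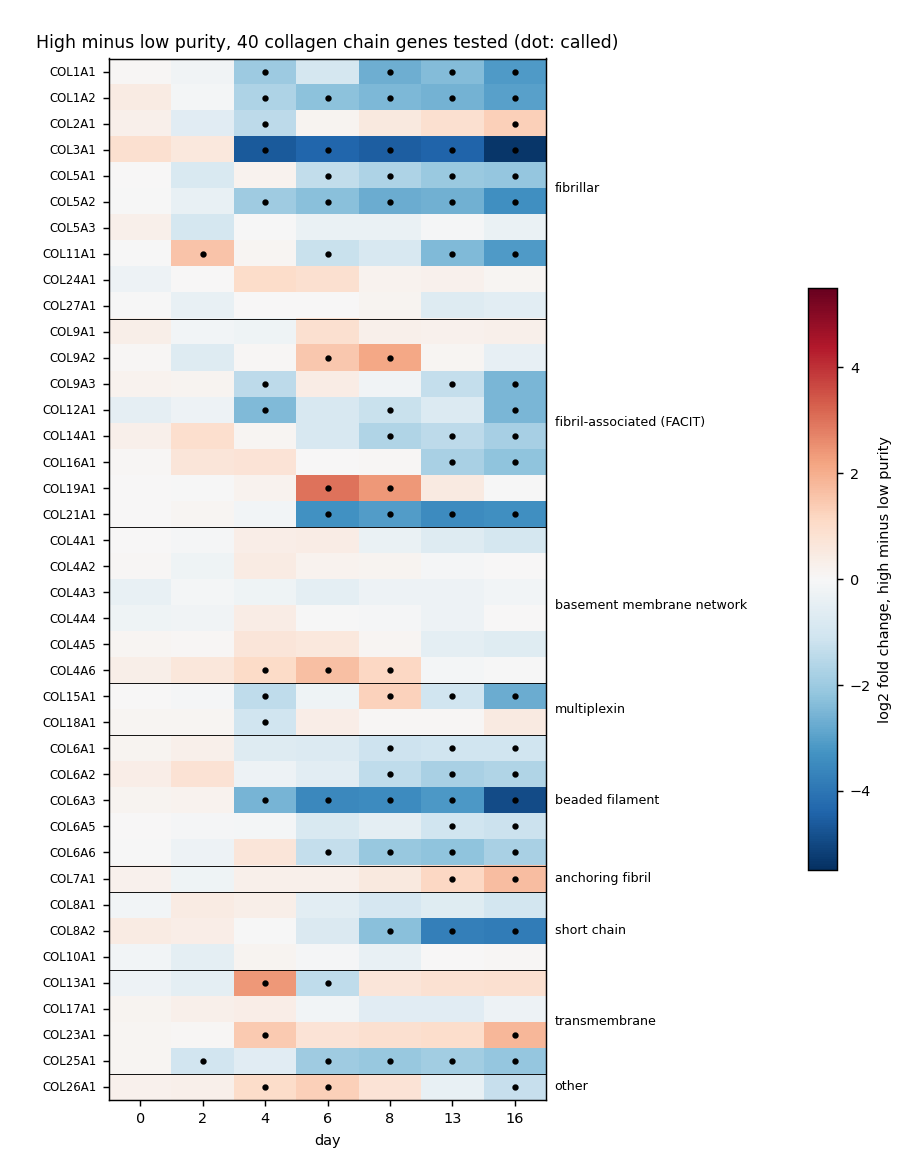
Log2 fold change, high minus low purity, of the 40 chains tested (rows, grouped by class) on the 7 days with at least 2 wells per class (columns), with a dot where a chain was called. Most dots are blue (lower in high purity) and by day 16 they cover 6 of the 10 fibrillar and all 5 beaded filament chains, with 23 chains called in all, while no basement membrane chain has a dot on days 13 and 16.

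Among the fibrillar chains, COL3A1, the chain of the homotrimer collagen III found with collagen I in soft tissues, showed the widest separation (chromosome 2, 188974373 to 189012746, GRCh38.p14, as for all positions below). It had 0 reads in all 4 low purity wells of day 0 and between 1 and 57 reads, at most 2.01 TPM, in the high purity wells. On day 4 it stood at 6.82, 3.13, 3.89 and 7.64 TPM in high purity wells and at 141, 155, 157 and 150 TPM in low purity wells (log2 fold change −4.62 ± 0.23; limma, adjusted p = 5.79e-21). On day 16 the wells held 117, 136 and 119 TPM in high and 7295, 5216 and 5195 TPM in low purity (−5.33 ± 0.27; adjusted p = 4.27e-21). The classes did not overlap on either day, and all 5 days tested from day 4 gave a call in that direction. Day 6 had 67.3, 67.9, 46.5 and 49.5 TPM against 1058, 1002, 1082 and 1647 TPM (−4.35 ± 0.23), day 8 62.8, 64.2 and 57.9 TPM against 1750.0, 1569, 1568 and 1952 TPM (−4.54 ± 0.25), and day 13 158 and 233 TPM against 5752, 4289, 4235 and 4482 TPM (−4.40 ± 0.28). Low purity well 1 of day 13 was the highest of its group. Set against a floor of 3 reads per well, the mean of low purity wells was at least 753-fold higher on day 4 than on day 0 and at least 29500-fold higher on day 16.

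COL1A1 and COL1A2, which together make collagen I, parted by day 4. COL1A1 (chromosome 17, 50184101 to 50201631) had 141, 96.5, 113 and 152 TPM in high purity wells and 494, 500.3, 499.6 and 496 TPM in low purity wells on that day, then 221, 280, 255 and 3058, 2379, 2226 TPM on day 16, with log2 fold changes of −1.99 ± 0.10 and −3.11 ± 0.12 (limma, adjusted p = 1.78e-20 and 3.37e-25). COL1A2 (chromosome 7, 94394895 to 94431227) had 86.9, 65.5, 81.5 and 91.5 TPM in high purity wells and 266, 269, 264 and 258 TPM in low purity wells at that time, and 119.6, 148 and 125 TPM against 1510.0, 1116 and 1084 TPM on day 16, when it was again called lower in high purity. No well of one class reached the other on these days for either chain. On day 6 COL1A2 was called (−2.26 ± 0.10) and COL1A1, at −0.98 ± 0.10, stayed just under the fold threshold.

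Their ratio moved with time in both classes. On day 0 COL1A1 stood at 0.759 ± 0.0661 (SD, n = 4) of the TPM of COL1A2 in high purity wells and at 0.998 ± 0.0846 in low purity wells. On day 2 the ratio was 0.0829 ± 0.0125 and 0.0887 ± 0.0059: COL1A2 was at 156 TPM and 177 TPM on average while COL1A1 stood at 12.8 TPM and 15.7 TPM. By day 16 it was 1.92 ± 0.102 and 2.07 ± 0.0556. On day 6 it was 3.06 ± 0.229 in high and 1.25 ± 0.0499 in low purity wells, with no overlap. In the RNA-only experiment, at stage 2, the ratio was between 0.0155 and 0.0850 in 5 of 6 libraries, and 0.545 in H9 low purity.

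COL5A1 and COL5A2, the chains of collagen V that nucleates collagen I fibrils, did not move together. On day 4 COL5A1 had 141, 144, 172 and 151 TPM in high purity wells and 123, 134, 133 and 139 TPM in low purity wells, and it was not called (log2 fold change 0.20 ± 0.11; limma, adjusted p = 0.159). COL5A2 had 39.3, 33.4, 29.5 and 36.6 TPM in high and 141, 136, 125 and 151 TPM in low purity wells and was called (−1.96 ± 0.11; adjusted p = 3.55e-19). The ratio of COL5A1 to COL5A2 was 4.47 ± 0.954 in high and 0.960 ± 0.0842 in low purity wells, with no overlap. By day 16 both were lower in high purity, COL5A1 with 70.4, 91.4 and 71.2 TPM against 478, 362 and 355 TPM (log2 fold change −2.12 ± 0.13) and COL5A2 with 32.5, 39.4 and 34.0 TPM against 476, 403 and 421 TPM (−3.37 ± 0.13). COL5A2 (chromosome 2, 189031898 to 189441111) lies tail to tail with COL3A1, 19151 bases apart.

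COL2A1, the fibrillar chain of cartilage that embryonic heart and notochord also express, went the other way. On day 4 it was lower in high purity, with 53.6, 39.99, 45.2 and 57.4 TPM against 141, 136, 134 and 133 TPM (log2 fold change −1.46 ± 0.12; limma, adjusted p = 9.49e-14). On day 16 it was higher, with 301, 331 and 304 TPM against 129, 170 and 148 TPM (1.29 ± 0.14; adjusted p = 1.23e-10). The classes did not overlap on either day, and the difference between these 2 differences was 2.75 ± 0.18 (adjusted p = 1.4e-16). COL2A1 was the only fibrillar chain called higher in high purity on day 16, when 6 of the 10 tested were lower. COL11A1, which pairs with collagen II in cartilage, had by then turned the other way: its 10.7, 14.0 and 9.92 TPM in high purity wells lay under the 151, 100 and 117 TPM of low purity wells (−3.10 ± 0.15). COL5A3, COL24A1 and COL27A1 were called on no day.

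**Figure D3:**
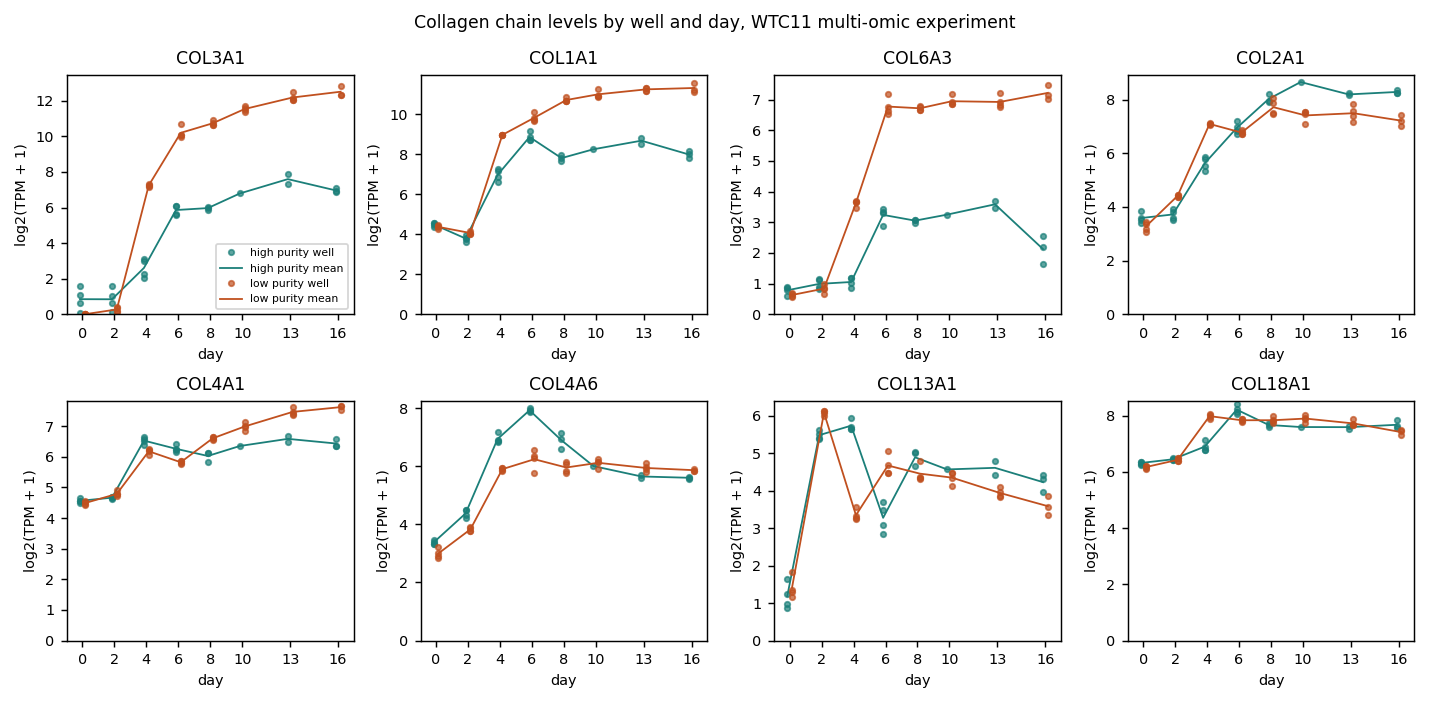
Level of 8 chains in each well, as log2(TPM + 1), by day, with a line through the mean of each class in the multi-omic experiment. COL3A1, COL1A1 and COL6A3 split by class from day 4 on, COL2A1 crosses over between day 4 and day 16, COL13A1 crosses between day 4 and day 6, and COL4A6 peaks on day 6 in high purity wells.

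The beaded filament chains of collagen VI, which forms a pericellular network, were called one after the other. COL6A3 (chromosome 2, 237324018 to 237414164) had 1.27, 0.801, 1.01 and 1.25 TPM in high purity wells and 10.2, 11.6, 12.0 and 11.8 TPM in low purity ones on day 4, and 2.11, 4.86 and 3.56 TPM against 177, 142 and 129 TPM on day 16 (log2 fold changes −2.55 ± 0.13 and −4.94 ± 0.15; limma, adjusted p = 1.19e-20 and 1.59e-28). Between these days it had 9.68, 8.97, 6.41 and 9.11 TPM against 98.8, 91.2, 107 and 143 TPM on day 6 and 7.49, 7.46 and 6.95 TPM against 107, 99.6, 99.4 and 111 TPM on day 8 (−3.53 ± 0.13 and −3.45 ± 0.14), with no overlap. Its partners COL6A1 and COL6A2 were abundant from day 2 in both classes, at 277 and 177 TPM on average in high and 237 and 105 TPM in low purity wells, when COL6A3 was at 0.996 and 0.791 TPM. They were not called before day 8, when they differed by −1.16 ± 0.08 and −1.41 ± 0.10. On day 16 all 5 chains tested were lower in high purity, with COL6A1 at 64.4, 66.0 and 67.3 TPM against 189, 157 and 153 TPM and COL6A2 at 78.6, 81.1 and 78.6 TPM against 336, 280 and 270 TPM. The ratio of COL6A3 to COL6A1 was 0.0531 ± 0.0205 in high purity wells and 0.894 ± 0.0469 in low purity wells on day 16 (SD, n = 3 each), from 0.0225 and 0.0194 on day 0. COL6A5 and COL6A6, further chains of collagen VI, were lower in high purity by −1.20 and −1.78 on day 16.

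The basement membrane network was the class with the fewest late calls, 0 of 6 on days 13 and 16, while 4 of the 6 chains rose from day 0 to day 16 in both classes. COL4A6 (chromosome X, 108155614 to 108439458) was higher in high purity on days 4, 6 and 8. Its wells held 118, 112, 143 and 116 TPM in high and 58.1, 61.0, 59.9 and 55.98 TPM in low purity on day 4, and 232, 254, 244 and 240 TPM against 77.2, 93.7, 80.0 and 53.7 TPM on day 6, log2 fold changes of 1.04 ± 0.10 and 1.67 ± 0.10 (limma, adjusted p = 3.14e-12 and 1.35e-18). On day 16 it stood at 46.2, 48.7 and 47.9 TPM against 56.1, 56.7 and 59.0 TPM (−0.04 ± 0.11, not called). Its neighbour COL4A5 (chromosome X, 108439838 to 108697545), whose start lies 379 bases away on the other strand, was called on no day: it stood at 93.4, 83.7, 99.3 and 90.2 TPM in high and 53.9, 56.2, 63.7 and 53.9 TPM in low purity on day 4 (0.68 ± 0.06), and at 53.4, 62.6 and 53.4 TPM against 107, 103 and 99.7 TPM on day 16. The ratio of COL4A5 to COL4A6 was lowest on day 6 in high purity wells, 0.585 ± 0.0298, against 1.26 ± 0.167 in low purity wells. COL4A3 and COL4A4, the chains of the kidney filter and other specialised membranes, stayed under 3 TPM in group means of both classes.

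COL4A1 and COL4A2, which together make the common type IV trimer, lie head to head on chromosome 13, and the 126 bases between their start sites are shown because both chains start from them while their ratio differed between the classes. The stretch spans chr13:110307158-110307283 (RefSeq, GRCh38.p14, plus strand), with 80.2% G or C, and capitals mark the motifs CCAAT and GGGCGG searched on both strands.
COL4A1 to COL4A2: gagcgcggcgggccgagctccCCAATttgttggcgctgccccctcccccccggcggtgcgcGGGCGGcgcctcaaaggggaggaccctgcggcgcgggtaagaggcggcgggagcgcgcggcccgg
CCAAT had 1 match, and 21.1% of 35116 RefSeq promoters hold it in the 126 bases before the start. GGGCGG had 1 match, and 34.6% hold it. TATAAA, held by 5.87%, had 0 matches. The 2 matches do not overlap. Promoter entries matched 32 of the 44 chains.

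On day 4 COL4A1 had 94.1, 82.4, 98.9 and 90.5 TPM in high and 65.8, 72.1, 74.6 and 73.6 TPM in low purity ones. By day 16 the order had turned, with 80.9, 94.6 and 81.5 TPM against 202, 201 and 185 TPM, a log2 fold change of −0.97 ± 0.07 that stayed just under the fold threshold (limma, adjusted p = 3.17e-16). COL4A2 had 266, 299 and 274 TPM in high and 323, 341 and 302 TPM in low purity wells (0.02 ± 0.09; adjusted p = 0.943). The ratio of COL4A1 to COL4A2 was 0.579 ± 0.0157 and 0.600 ± 0.0424 on day 0 (n = 4 each). In high purity wells it was 0.734 ± 0.073 on day 4 and lower on each later day, down to 0.306 ± 0.0101 on day 16, against 0.608 ± 0.0185 in low purity wells (n = 3 each), with no overlap. Between day 4 and day 16 COL4A1, COL4A5 and COL4A6 changed differently in the classes, by −1.32 ± 0.09, −1.33 ± 0.09 and −1.09 ± 0.15 (limma, all called), whereas COL4A2 at −0.42 ± 0.12 was not called.

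**Figure D4:**
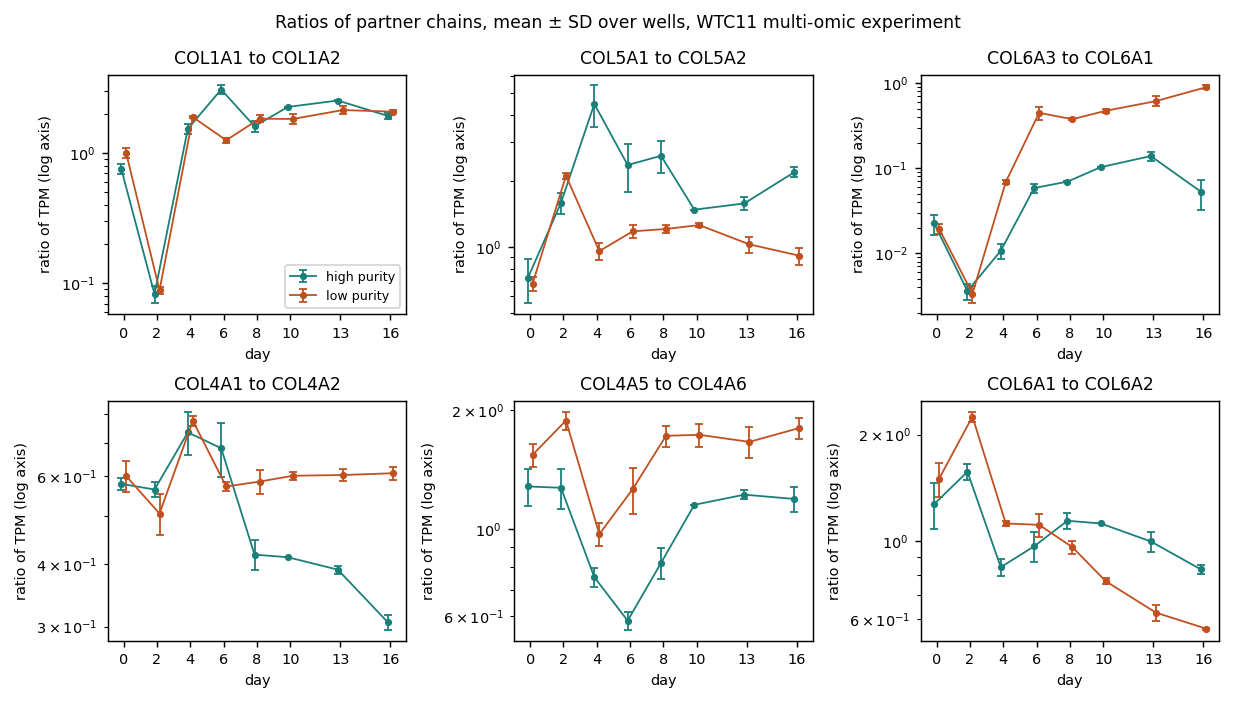
Ratio of the TPM of partner chains by day, as mean ± SD over wells on a log axis, for 6 pairs in the multi-omic experiment (the single high purity well of day 10 has no SD). COL1A1 to COL1A2 dips on day 2 in both classes, COL4A1 to COL4A2 declines in high purity wells from 0.734 on day 4 to 0.306 on day 16, and COL6A3 to COL6A1 climbs to 0.894 in low purity wells.

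The multiplexins, basement membrane collagens whose ends release endostatin-like fragments, differed from each other. COL18A1 was called on day 4 only, lower in high purity, at 108, 110, 140 and 117 TPM against 236, 256, 247 and 267 TPM (log2 fold change −1.08 ± 0.07; limma, adjusted p = 2.73e-17). On day 16 its wells held 195, 230 and 186 TPM against 177, 173 and 158 TPM (0.48 ± 0.08, not called). COL15A1 changed sign along the course: it was at or near 0 in high purity wells on day 4 (at most 0.145 TPM) and at 2.20, 1.51, 1.96 and 1.80 TPM in low purity wells, higher in high purity on day 8 (6.76, 5.26 and 6.32 TPM against 2.71, 2.01, 2.57 and 2.08 TPM), and lower again on day 16 (0.725, 1.27 and 1.72 TPM against 18.6, 15.1 and 11.4 TPM). All 3 differences were called, at −1.41 ± 0.17, 1.27 ± 0.18 and −2.75 ± 0.19. The change between day 4 and day 16 depended on the scale for this chain: it was −1.34 ± 0.25 on log2(TPM + 1), 0.45 with a pseudocount of 0.1 and 1.69 in edgeR on recovered reads.

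Among the FACITs, 5 of the 8 tested were lower in high purity on day 16 and 0 were higher. COL21A1, a small FACIT, had 1.29, 1.84, 1.48 and 1.72 TPM in high purity wells and 24.4, 21.2, 22.6 and 36.1 TPM in low purity ones on day 6 (log2 fold change −3.33 ± 0.13; limma, adjusted p = 1.55e-24), after 6.22, 4.75, 6.30 and 6.54 TPM against 5.52, 7.17, 6.87 and 7.26 TPM on day 4. It stayed apart later, with 2.32, 2.08 and 1.47 TPM against 30.9, 26.6, 24.3 and 28.9 TPM on day 8 and 3.07 and 3.39 TPM against 59.2, 48.9, 43.3 and 54.8 TPM on day 13 (−3.09 ± 0.14 and −3.47 ± 0.16). COL12A1, which binds the surface of collagen I fibrils, was at or under 0.320 TPM in high purity wells on day 4 and at 5.22, 4.83, 5.65 and 6.66 TPM in low purity wells (−2.42 ± 0.11). COL9A2 and COL19A1 showed a short pulse in both classes. COL9A2, a chain of the cartilage collagen IX, stood between 54.7 and 63.3 TPM in all 8 wells of day 4. On day 8 it was at 10.3, 5.94 and 6.81 TPM in high purity wells and at 0.918, 1.32, 1.05 and 1.42 TPM in low purity wells (2.13 ± 0.14; adjusted p = 2.04e-16). COL19A1, a FACIT of embryonic muscle, stood between 10.7 and 14.6 TPM in the wells of day 4, and on day 6 at 24.8, 27.9, 29.3 and 23.8 TPM in high and 3.08, 2.96, 2.20 and 1.33 TPM in low purity wells (2.99 ± 0.11; adjusted p = 6.79e-26). COL9A2 on day 6 had 27.8, 29.8, 25.5 and 29.1 TPM against 10.7, 9.82, 9.66 and 7.15 TPM (1.48 ± 0.13), and COL19A1 on day 8 had 6.33, 7.29 and 5.19 TPM against 0.485, 0.486, 0.369 and 0.654 TPM (2.40 ± 0.12), the classes again apart. Both stood at most at 1.16 TPM in the wells of day 16. COL9A3 did not follow its partner COL9A2: it was lower in high purity on day 4 (17.2, 18.3, 16.4 and 16.8 TPM against 48.7, 47.1, 47.3 and 52.9 TPM) and on day 16 (6.14, 5.73 and 4.00 TPM against 47.8, 37.8 and 34.4 TPM). COL9A1 was called on no day between the classes (11.5, 10.4, 9.79 and 9.14 TPM in high and 7.76, 7.40, 7.40 and 8.30 TPM in low purity on day 0) and was lower on day 16 than on day 0 in both, by a log2 fold change of −2.53 ± 0.16 and −2.51 ± 0.16.

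The transmembrane chains gave 2 of the 4 calls higher in high purity on day 4. COL13A1, found at neuromuscular and other cell to matrix contacts, had 49.1, 51.3, 61.0 and 48.9 TPM in high and 8.70, 10.7, 9.03 and 8.40 TPM in low purity on day 4 (log2 fold change 2.39 ± 0.16; limma, adjusted p = 9.02e-17). On day 2 the order had been 48.1, 40.9, 44.5 and 41.8 TPM against 69.4, 68.7, 67.0 and 62.5 TPM (−0.53 ± 0.16, under the fold threshold). On day 6 it was lower, at 12.0, 7.52, 6.19 and 10.1 TPM against 24.6, 21.3, 21.4 and 32.2 TPM (−1.40 ± 0.16). COL23A1 had 35.9, 45.6, 54.9 and 42.7 TPM in high and 13.1, 17.3, 18.8 and 15.1 TPM in low purity on day 4, and 33.0, 32.9 and 24.5 TPM against 7.30, 9.68 and 11.2 TPM on day 16 (1.42 ± 0.13 and 1.81 ± 0.15). COL25A1 remained lower in high purity on days 6, 8, 13 and 16, by −2.12 ± 0.13 on day 16.

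Of the remaining chains, COL7A1, which builds the anchoring fibrils under epithelia, was the third chain called higher in high purity on day 16, with 8.30, 9.79 and 7.20 TPM against 1.71, 2.57 and 2.90 TPM (log2 fold change 1.70 ± 0.19; limma, adjusted p = 1.83e-10). On day 13 it was the 1 chain called higher, with 6.79 and 7.35 TPM against 1.67, 5.07, 3.58 and 2.91 TPM (1.13 ± 0.20). COL8A2, a short chain of the membrane under the corneal endothelium, had 0.570, 0.665 and 0.537 TPM in high and 30.6, 19.6 and 18.6 TPM in low purity wells (−3.84 ± 0.19; adjusted p = 2.4e-21), after 1.12 and 0.677 TPM against 30.6, 28.9, 20.8 and 29.2 TPM on day 13 (−3.78 ± 0.20). COL26A1 was higher in high purity on day 4 (43.0, 40.7, 55.8 and 43.2 TPM against 18.3, 24.1, 22.9 and 22.3 TPM) and lower on day 16 (6.03, 8.40 and 5.92 TPM against 24.5, 18.0 and 19.0 TPM). The difference between these 2 differences was −2.31 ± 0.22. The call of day 4 (1.03 ± 0.14) was lost without high purity well 3 (0.97) or low purity well 1 (0.94). COL10A1, the chain of hypertrophic cartilage, and COL17A1, of epithelial hemidesmosomes, were called on no day. Over the 7 days, 28 of the 40 chains tested were called at least once: 18 only lower in high purity, 5 only higher, and 5 in both directions on different days (COL2A1, COL11A1, COL13A1, COL15A1 and COL26A1). The share of all genes called at least once was not counted. On single days it was between 1.07% and 13.4%.

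Along the time course more of the 40 chains tested were called rising than falling in each class. From day 0 to day 4, 20 chains rose and 2 fell in high purity wells (18.5% of all genes were called, 10.8% up, 7.74% down) and 24 rose and 2 fell in low purity wells (22.2%, 12.8% up, 9.36% down). From day 0 to day 16, 21 rose and 3 fell in high purity (35.4% of all genes, 19.4% up, 16.0% down) and 27 rose and 1 fell in low purity (34.1%, 19.5% up, 14.6% down). The median log2 fold change of the 40 chains was 1.10 and 2.64 over that span, beside 0.05 and 0.09 over all genes. In high purity wells COL3A1 rose by 6.39 ± 0.25, COL2A1 by 4.94 ± 0.13, COL5A1 by 3.96 ± 0.12 and COL1A1 by 3.71 ± 0.11 from day 0 to day 16. In low purity wells COL3A1, at 0 reads on day 0, rose at least 29500-fold, as given above, and COL1A1 rose by 6.89 ± 0.11, COL6A3 by 6.63 ± 0.14 and COL5A1 by 6.12 ± 0.12 (limma, all called). The high and low purity comparisons use different day 0 wells. The fold of COL3A1 over the floor is not on the scale of its log2 fold change in high purity wells. These values of COL3A1 are therefore not set against each other. The change differed between the classes for 13 chains from day 0 to day 4 (all genes 7.01%, 3.27% positive, 3.74% negative), for 24 from day 0 to day 16 (13.4%, 5.46% positive, 7.99% negative) and for 25 from day 4 to day 16 (15.5%, 6.79% positive, 8.75% negative). It was smaller or more negative in high purity for 10, 20 and 22 of these.

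A list of 51 genes beside the chains, 46 of them tested, holds genes that modify, fold, trim and crosslink collagen, genes of its cleavage and the inhibitors of that, and collagen receptors. On day 4, 6 were called, 4 higher and 2 lower in high purity, beside 7.84% of all genes (3.62% higher, 4.22% lower), and none of these 6 was a receptor. On day 16, 22 were called, 5 higher and 17 lower, beside 13.4% of all genes (5.76% higher, 7.66% lower), among them 3 receptors and 6 genes of cleavage and its inhibitors. SERPINH1, the collagen chaperone, stood at 327, 285, 276 and 316 TPM in high purity wells and at 275, 293, 310 and 290 TPM in low purity ones on day 4 (log2 fold change 0.05 ± 0.06; limma, adjusted p = 0.629), and at 106, 124 and 121 TPM against 401, 371 and 363 TPM on day 16 (−1.47 ± 0.07; adjusted p = 4.62e-21). LOX, which crosslinks fibrils, was higher in high purity on day 4 (7.74, 8.43, 8.43 and 8.86 TPM against 3.22, 4.45, 3.79 and 2.44 TPM) and lower on day 16 (10.5, 14.4 and 12.8 TPM against 66.9, 86.1 and 87.8 TPM). On day 4 LOXL2, another crosslinking enzyme, was lower, with 71.8, 65.7, 84.0 and 76.6 TPM against 224, 199, 205 and 224 TPM (−1.50 ± 0.09), as was COLGALT2, which adds galactose to hydroxylysine, with 6.02, 6.26, 7.47 and 7.52 TPM against 23.4, 19.0, 19.4 and 19.0 TPM (−1.43 ± 0.11). The gelatinase MMP9 was higher, with 1.86, 3.30, 3.40 and 3.74 TPM against 0.135, 0.393, 0.889 and 0.722 TPM (1.38 ± 0.23). The prolyl 3-hydroxylase gene P3H2 had 303, 335, 363 and 274 TPM against 139, 158, 160.5 and 154 TPM (1.06 ± 0.10) and its relative P3H3 had 51.3, 53.4, 61.6 and 70.5 TPM against 26.2, 30.1, 31.4 and 27.1 TPM (1.02 ± 0.12). On day 16 the 3 genes furthest down in high purity were collagen receptors. DDR2 had 1.08, 1.45 and 1.57 TPM against 53.0, 36.01 and 37.4 TPM (−4.07 ± 0.18), ITGA11 had 2.78, 3.81 and 3.36 TPM against 48.0, 33.7 and 33.6 TPM (−3.02 ± 0.18) and ITGA1 had 32.7, 33.8 and 32.7 TPM against 268, 244 and 247 TPM (−2.69 ± 0.13). The 3 furthest up were MMP9 with 4.24, 6.37 and 3.87 TPM against 1.18, 1.16 and 2.12 TPM (1.43 ± 0.27), the enhancer of propeptide removal PCOLCE2 with 3.71, 7.04 and 3.24 TPM against 1.15, 3.68 and 1.15 TPM (1.16 ± 0.31) and the propeptidase ADAMTS14 with 4.52, 2.62 and 2.55 TPM against 0.693, 1.43 and 1.43 TPM (1.14 ± 0.18). P4HA1 and PLOD2, hydroxylases of prolines and lysines, were called on neither day. On day 16 P4HA1 stood at 286, 368 and 334 TPM against 366, 411 and 412 TPM and PLOD2 at 198, 236 and 219 TPM against 232, 265 and 271 TPM.

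Markers of several other cell types also differed between the classes. On day 16 the 7 epicardial markers were all lower in high purity, with sums between 18.7 and 22.9 TPM against 413 and 565 TPM, and 7 of the 8 fibroblast and stromal markers tested (of 9) were lower, with sums between 699.5 and 1135 TPM against 3415 and 4147 TPM. DPT, among the latter, was at 0 in all 6 wells of that day. Smooth muscle markers summed to between 357 and 368 TPM against 1270 and 1384 TPM, with MYH11 at 0 in both classes. Endothelial markers summed to between 37.2 and 43.8 TPM against 157 and 236 TPM, and endoderm markers to between 88.7 and 512 TPM against 515 and 1373 TPM. Chondrogenic and sclerotome markers summed to between 8.73 and 11.7 TPM against 60.8 and 80.7 TPM, although COL2A1 was higher in high purity. Sums of neural and of pluripotency markers overlapped between the classes on day 16. On day 4, when 14 chains were called, epicardial markers summed to between 9.71 and 16.2 TPM in high and between 56.1 and 58.6 TPM in low purity wells, 3 of 7 lower, and cardiomyocyte markers to between 121 and 150 TPM against 1194 and 1359 TPM, 7 of 10 lower. Pluripotency markers then summed to between 1836 and 2429 TPM against 958 and 1092 TPM, 3 of 6 higher in high purity. What part these cells have in the collagen differences was not tested here.

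With the cell line as a block in the RNA-only experiment, 0 of the 43 chains tested were called between high and low purity at any of the 4 stages (edgeR, 0% of 23848 genes at each stage), and 0, 7, 5 and 11 chains had an unadjusted p under 0.05, beside 1.48%, 7.95%, 7.54% and 12.1% of all genes. DESeq2 called COL5A1 at stage 2 (1.35) and COL7A1 at stage 4 (1.02), among 76 and 205 of the 23848 genes. COL5A1 had the smallest p at stage 2, with a log2 fold change of 1.34 ± 0.20 (edgeR, adjusted p = 0.192). It stood at 32.4, 29.6 and 5.05 TPM in the high purity libraries of H9, IMR90-4 and WTC11 and at 11.2, 18.9 and 1.30 TPM in the low purity ones, higher in high purity in 3 of 3 lines at stages 2, 3 and 4. The multi-omic wells of WTC11 went the other way: COL5A1 was called lower in high purity on days 6, 8, 13 and 16. COL13A1 stood at 190, 130 and 32.1 TPM against 21.7, 85.6 and 9.67 TPM at stage 2, also higher in 3 of 3 lines (1.77 ± 0.60; adjusted p = 0.546). In the multi-omic wells COL13A1 was called higher in high purity on day 4 and lower on day 6. COL7A1 stood at 2.35, 2.94 and 1.69 TPM against 1.01, 1.63 and 0.815 TPM at stage 4, higher in 3 of 3 lines (1.03 ± 0.23; adjusted p = 0.223). COL2A1 stood at 61.9, 35.9 and 40.5 TPM against 7.34, 30.6 and 20.9 TPM at stage 4, higher in 3 of 3 lines (1.38 ± 0.57; adjusted p = 0.378). None of these passed the correction in edgeR. Of the 34 chains with at least 1 TPM in 3 libraries, 35.29%, 38.24%, 23.53% and 23.53% had the same sign in all 3 lines at stages 1 to 4, beside 20.9%, 30.8%, 29% and 32.2% of all genes. At stages 1 to 4 these were 10, 10, 7 and 5 chains higher and 2, 3, 1 and 3 lower in high purity. The 3 lower at stage 4 were COL3A1, COL4A5 and COL6A3. In H9, IMR90-4 and WTC11, COL3A1 differed by −6.21, −0.03 and −0.78 on the log2(TPM + 0.1) scale. COL4A5 differed by −0.41, −0.36 and −0.05, and COL6A3 by −2.11, −0.29 and −0.19.

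In H9 low purity COL3A1 and COL6A3 stood above the other 5 differentiations at stages 2 to 4. COL3A1 reached 11.5, 368 and 897 TPM at stages 2, 3 and 4 there, while the other 5 libraries held at most 0.266, 2.35 and 43.4 TPM at these stages. COL6A3 was at 3.13, 6.24 and 4.27 TPM in H9 low purity and at most at 0.305, 0.760 and 1.47 TPM in the others. Epicardial markers of H9 low purity summed to 159 TPM at stage 4, against 4.20 to 26.6 TPM in the other 5 libraries. Its cardiomyocyte markers summed to 372 TPM against 763 to 3275 TPM. Its fibroblast and stromal markers, at 660.5 TPM, lay within the 569 to 811 TPM of the other 5 libraries. The part of these cells in the result was not tested. COL1A1 at stage 3 was lower in high purity by 2.09 on the log2(TPM + 0.1) scale in H9 and higher by 1.98 and 1.11 in IMR90-4 and WTC11. Without H9, 4 chains were called at stage 3, COL1A1, COL11A1 and COL25A1 higher in high purity (1.46, 1.45 and 1.10) and COL9A3 lower (−1.09), beside 129 of all genes tested. For WTC11 of passage 69, labelled low purity in both experiments, COL3A1 was at 1.15 TPM on day 4 and 43.4 TPM on day 6 in the RNA-only library and between 141 and 157 and between 1002 and 1647 TPM in the multi-omic wells. The high purity library of WTC11 (passage 81) held 2.35 TPM of COL3A1 on day 4 and 25.2 TPM on day 6. Fibrillar chains at stage 3 summed to 130.5 TPM (high) against 63.7 TPM (low) for WTC11, and to 169.5 against 85.0 TPM for IMR90-4. H9 had the opposite order, 153.6 against 630.0 TPM. Multi-omic wells of day 4 also had the lower fibrillar sum in high purity, 493 against 1360 TPM. The libraries were made with different kits and normalized separately, so the experiments are given side by side only.

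COL22A1, a FACIT of tissue junctions, was measured in H9 alone above 0.0204 TPM. It stood between 0.170 and 5.66 TPM in the 8 libraries of H9 and at or under that level in the 16 libraries of the 2 induced lines, and had 0 reads in all 56 multi-omic wells. In H9 it was at 2.85 and 4.67 TPM in low purity and at 0.170 and 0.253 TPM in high purity at stages 2 and 3, and at 4.45 and 5.66 TPM at stage 4. COL19A1 stood between 2.72 and 6.45 TPM at stage 4 in IMR90-4 and WTC11 and at 0.877 and 0.00446 TPM in H9 of high and low purity.

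**Figure D5:**
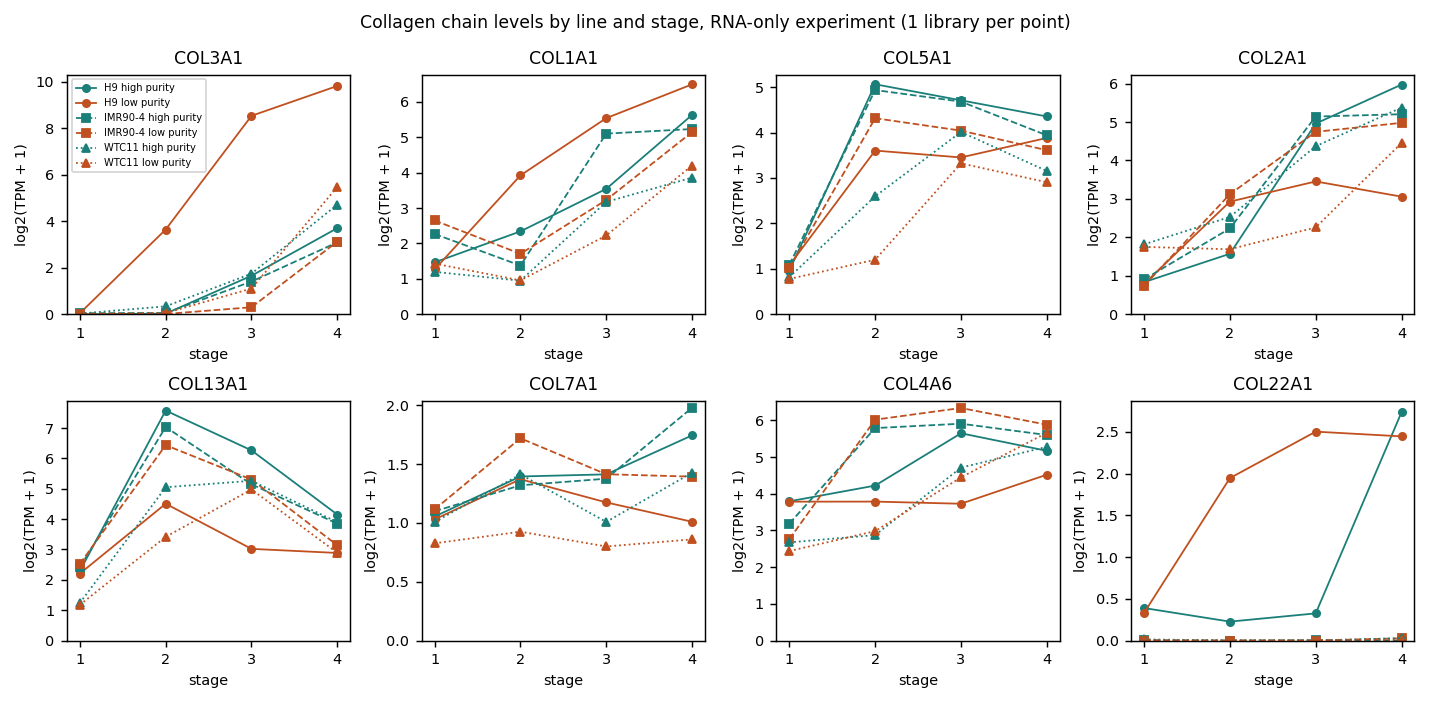
Level of 8 chains, as log2(TPM + 1), at the 4 stages of the RNA-only experiment, with 1 library per point, colour for class and marker and line style for cell line. COL3A1 of H9 low purity lies far above the rest from stage 2 (897 TPM at stage 4), COL22A1 is seen in H9 only, and COL5A1 of high purity lies above that of low purity in each line at stages 2 to 4.

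Over all 6 differentiations more chains were called rising than falling at each later stage, as was also so over all genes. Against stage 1, 23 of 43 chains were called at stage 2, 16 rising and 7 falling (all genes 25.6%, 14.8% up, 10.8% down). At stage 3 these numbers were 27, 21 and 6 (36.2%, 20.5% up, 15.7% down). At stage 4 they were 27, 23 and 4 (39.5%, 23.4% up, 16.2% down). COL13A1 rose by 4.34 at stage 2 and by 1.85 at stage 4, COL9A2 by 3.93 and 3.99, COL5A1 by 3.86 and 3.68 and COL2A1 by 1.93 and 4.57 on the log2 scale (edgeR, all called). COL4A5 and COL4A6 rose by 2.22 and 2.40 at stage 4, while COL4A1 and COL4A2, at 0.32 and 0.43, were not called. COL14A1 fell by 2.46, COL5A3 by 2.92 and COL8A2 by 1.80 at stage 4. Without IMR90-4, 13 chains were called at stage 2, among 4548 of all genes.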

How the data were processed

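RNA of 80 libraries was measured in 2 experiments. The authors deposited a table of whole-number counts per gene and a table of TPM for each experiment, aligned with STAR 2.5.3a to hg38 and counted with featureCounts 2.0.3, per the submitters' processing notes. How the TPM were computed is not given in the sources used here. For the RNA-only experiment the count and TPM columns matched by name in 24 of 24 libraries, and 36 broken lines of that table were left out. Gene lengths solved from those tables gave whole reads for 100% of nonzero multi-omic TPM (tolerance 0.02 reads), which give the depths above. Counting error limits low values: 3 reads per library was the floor.

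Multi-omic TPM were scaled by TMM factors and tested with limma 3.58.1 (R 4.3.3) on log2(TPM + 1) over all 16 groups, for genes with at least 1 TPM in 3 libraries. RNA-only counts were tested with edgeR 4.0.16 (quasi-likelihood), with means for each line and stage in the comparison of classes. All p-values were adjusted by Benjamini-Hochberg over all genes tested. Alternatives were DESeq2 1.42.0, other scalings, pseudocounts, filters and thresholds, and each library left out; edgeR on recovered reads was added after seeing the data. The tests were tested on simulated data.

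The chains, the gene lists and the tests were chosen with earlier results of these data known. Every chain may be named. Values per library are given for the chains with the largest changes on each day and for chains that assemble with or lie next to each other, and of the processing genes for the 3 largest changes in each direction and for SERPINH1, P4HA1, PLOD2 and LOX. Promoter sequence and gene positions came from RefSeq (GRCh38.p14). Well numbers did not pair the samples: of 24 same-numbered pairs, 0 had a correlation of deviations over 0.1 (−0.0162 to 0.0327).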

Additional observations from a re-analysis of the deposited data

Results flagged for a closer look

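Of 297 groups of 4 wells checked, 14 held a well past the 95% critical value of Dixon's test, which by its definition chance passes in about 1 in 20 groups. In low purity well 1 of day 13, COL3A1 (5752 TPM), COL1A2 (1329 TPM) and COL15A1 (10.7 TPM) were the highest of their groups. In low purity well 4 of day 6, COL3A1 (1647 TPM), COL5A1 (250.1 TPM) and COL12A1 (15.2 TPM) were. The other high wells were low purity COL1A1 in well 4 of day 8 (1854 TPM) and well 1 of day 10 (2449 TPM), COL13A1 in well 2 of day 8 (26.6 TPM), COL23A1 in well 2 of day 13 (14.8 TPM) and COL9A3 in well 2 of day 2 (19.1 TPM), and high purity COL12A1 in well 3 of day 0 (1.01 TPM; 0.485 TPM in the lowest well). COL4A2 was low in high purity well 3 of day 2 (40.3 TPM) and low purity well 1 of day 4 (82.7 TPM).

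The change between days differed between the classes for 13 chains from day 0 to day 4, 24 from day 0 to day 16 and 25 from day 4 to day 16, by an interaction test in limma. COL2A1 and COL26A1 reversed between day 4 and day 16, with differences of 2.75 and −2.31.

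COL1A2-AS1 and COL5A1-AS1, antisense entries outside the comparisons, averaged 8.33 and 18.4 TPM in low purity wells of day 16. In high purity wells of that day they lay between 0.305 and 1.18 TPM and between 2.62 and 6.87 TPM. COL4A2 and COL18A1 also have antisense entries, which reached at most 6.87 and 35.1 TPM in any multi-omic well. Use of strand in the counting is not given in the sources used here, so reads of these entries and of their partners may not be separable.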

How the results depend on the processing

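Of 276 alternative values for the numbers of chains called, 257 were within 1.5 times the value reported. With a pseudocount of 0.1, 1 chain was called on day 0 and 6 on day 2, among 781 and 2712 of all genes. With no fold threshold the numbers were 6, 20, 25, 31, 30 and 29 on days 0, 2, 4, 6, 8 and 13, beside 14.6%, 37.4%, 36.8%, 39.9%, 44.1% and 35.9% of all genes. They were 34 from day 0 to day 4 in high purity wells (53.6%) and 24 for the change from day 0 to day 4 (23.4%). With edgeR on recovered reads, chosen after seeing the data, 1 was called on day 0 and 6 on day 2, among 643 and 2676 of all genes. DESeq2 called 1 chain at stage 2 (COL5A1) and 1 at stage 4 (COL7A1). Leaving out 1 library gave 0 to 1 chains on day 0, 1 to 3 on day 2, 0 to 4 at stage 3 (4 without H9) and 13 to 22 for stage 2 against stage 1 (13 without IMR90-4). COL15A1 reversed for the change from day 4 to day 16, at 0.45 with a pseudocount of 0.1 and 1.69 in edgeR on recovered reads, and the cause was not tested. Of 252 calls of single chains in the multi-omic experiment, 237 held under every alternative run.

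Without scaling, the median log2 difference over all genes became −0.179, −0.133 and −0.118 for days 8, 13 and 16, and the calls of COL4A6 on day 8 (0.93) and COL7A1 on day 13 (0.97) fell under the fold threshold. The share of all calls that were higher in high purity was then 25.3%, 30.6% and 28.1%, against 38.3%, 42.2% and 42.9% with scaling. Of the calls between day 0 and day 4 in low purity wells 68.0% rose, against 57.8% with scaling. The share of positive calls was 22.7% against 40.6% and 31.7% against 43.7% for the changes from day 0 and from day 4 to day 16.

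With the well number as a replicate block, 0, 2, 14, 14, 18, 19 and 23 chains were called on days 0 to 16, as without it. Without the block for cell line, 0 were called at each stage. Wells come from 1 differentiation per class, and low chains are limited by counting error.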
